A study of Mus musculus with 6 samples.

Results

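The genes described here are 39 macrophage and myeloid genes, followed across 6 Affymetrix Mouse Genome 430 2.0 arrays of mouse liver at the embryonic stage E12.5. They were picked by symbol from a fixed list, not by their values, out of 20678 genes with an unshared probe set, and 39 of 39 were found. The file writes Adgre1 as Emr1. Spi1, which it lists as Sfpi1, was found by its Entrez identifier. For 17 genes with several probe sets, the one with the greatest average over the 4 sorted fractions stands for the gene.

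All embryos were wild type C57Bl6, and each of the 6 groups had a single array. Liver cells and cells positive for the adhesion molecule ALCAM made up a pair of groups. The other 4 were sorted from ALCAM+ cells by a further marker, into PDPN+ and PDPN- or into ITGA8+ and ITGA8-. PDPN is podoplanin, a surface glycoprotein of mesothelium, and ITGA8 is an integrin subunit that, by the title of the series, marks a population of hepatic stellate cells, the mesenchymal cells that store vitamin A. The sources used here do not give the number of embryos or cells behind an array, or say whether blood cells were removed. With single arrays no test or spread between samples could be computed, and every difference is one between 2 arrays.

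Macrophages are phagocytes that depend on signals through the CSF1 receptor, the product of Csf1r, and on the transcription factor PU.1, the product of Spi1. In the fetal liver, which makes the blood of the embryo at this stage, they sit among maturing erythroblasts and engulf expelled nuclei. They share many of their surface receptors, lysosomal enzymes and signalling proteins with monocytes and neutrophils.

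Values are intensities on a linear scale. The 4 fraction arrays share a trimmed mean of 996 to 997, whereas the liver array has 196 and the ALCAM+ array 331, so fractions are compared with fractions, and ALCAM+ with liver relative to the median over all genes. Differences are on the scale log2(intensity + 16), and the floor is 109, which is the median intensity over probe sets and arrays. Comparisons leave out a gene that is at or below it in both arrays. Within each pair of arrays the transcripts of the sort markers followed the labels. Pdpn read 7746 in PDPN+ against 117 in PDPN-, and Itga8 read 4354 in ITGA8+ against 871 in ITGA8-. Alcam, as deposited, read 13425 in ALCAM+ and 3207 in liver. In the other sort, Pdpn read 4658 in ITGA8+ and 6176 in ITGA8-, and Itga8 read 737 in PDPN+ and 2215 in PDPN-.

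The 39 genes were concentrated in 1 array. In PDPN+ cells 36 of them exceeded the floor, against 18 in ITGA8+, 16 in ITGA8- and 8 in PDPN-. Of all 20678 genes, 13006 exceeded it in PDPN+, 13357 in ITGA8+, 13307 in ITGA8- and 11868 in PDPN-. For 17 of the 39 genes PDPN+ was the only fraction above the floor. That share was not counted over all genes, so nothing is read from the 17. Of the 36 genes above the floor in some fraction, 36 were highest in PDPN+, where 20.3% of all 14508 genes were highest. PDPN+ exceeded each of the other 3 fractions at least 4-fold for 24 of these 36 genes, and for 0.813% of all genes. Because every one of the 36 entered through PDPN+, such counts are read only beside these shares. The remaining 3 genes did not exceed the floor in any array. They were Vsig4, a complement receptor of tissue macrophages, at 1 to 6, Cd163, the haemoglobin scavenger receptor, at 6 to 31, and Cd14, a coreceptor for bacterial lipopolysaccharide, at 16 to 67. In bulk samples a smaller number of cells of a type and less RNA per cell cannot be told apart.

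**Figure D1:**
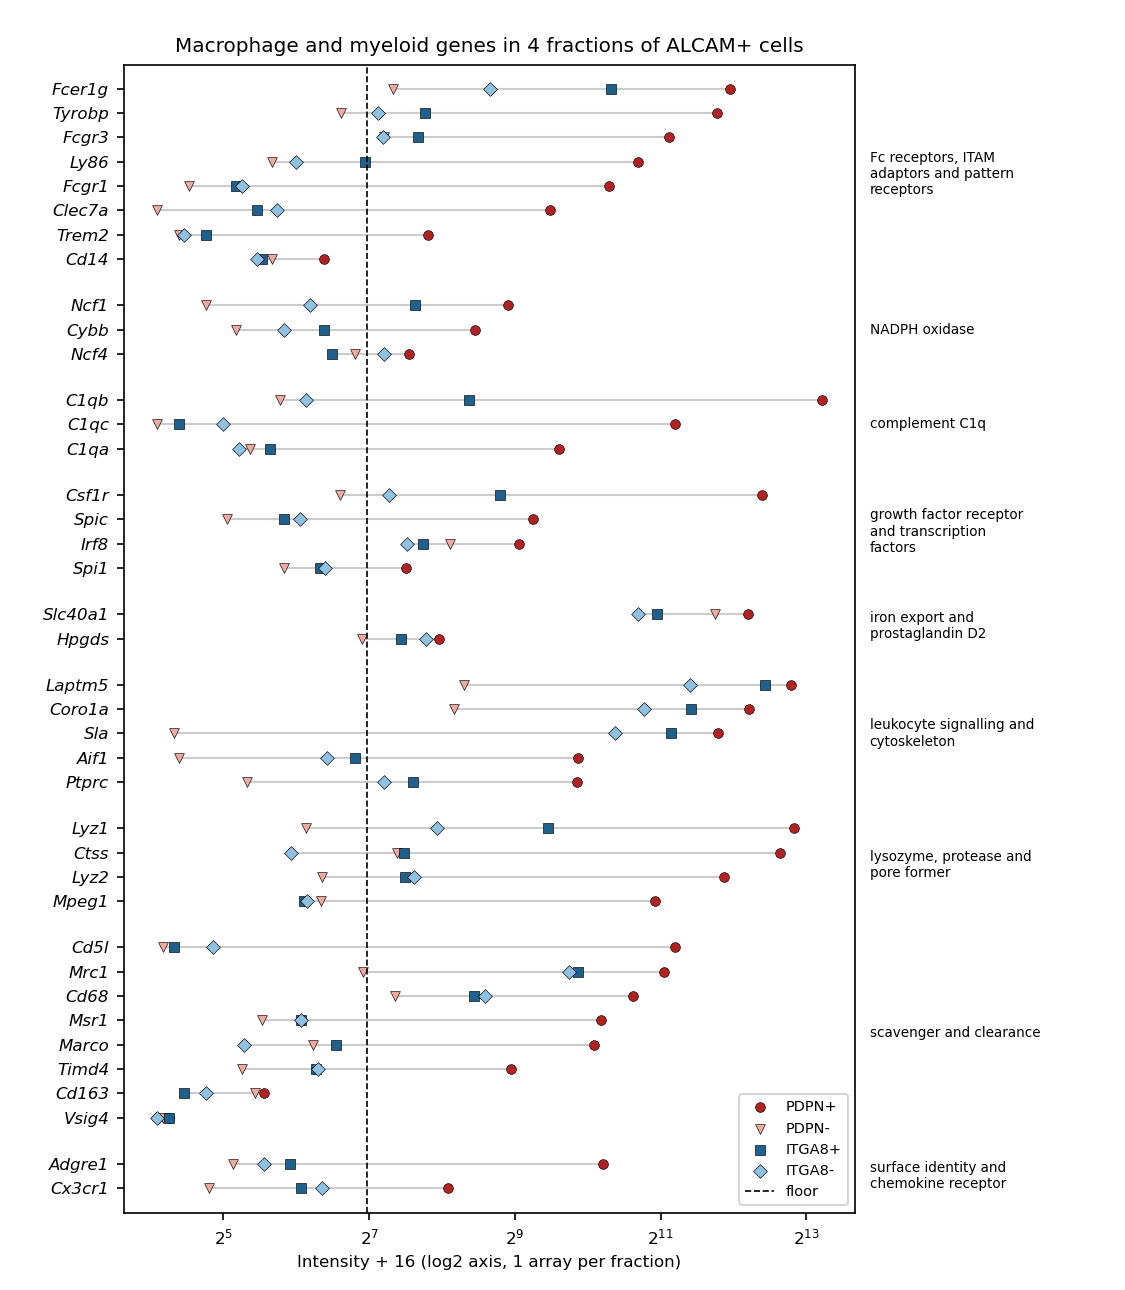
Intensity plus 16 (log2 axis) of the 39 genes in the 4 fraction arrays, grouped by role, with 1 point per array, and the floor of 109 as a dashed line. PDPN+ (red circles) is the highest point for all 36 genes above the floor. With the 1 probe set shown per gene, ITGA8+ (dark squares) exceeds 50% of the PDPN+ intensity for Laptm5, Hpgds, Sla and Coro1a.

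The complement C1q genes were high in PDPN+ and, except for C1qb in ITGA8+, below the floor in the other fractions. C1q is the hexameric recognition molecule of the classical complement pathway, and macrophages make its A, B and C chains from adjacent genes: in the RefSeq gene table C1qb, C1qc and C1qa follow each other with no other protein-coding gene between them. C1qb was at 9462 in PDPN+, with 39 in PDPN- and 315 and 54 in ITGA8+ and ITGA8-. C1qc was at 2338, 1, 5 and 16 in the same order. C1qa was at 764, 25, 34 and 21. Only PDPN+ was above the floor for C1qa and C1qc, and for C1qb ITGA8+ also was. PDPN+ exceeded PDPN- 172-fold for C1qb, 138-fold for C1qc and 19.0-fold for C1qa, sizes that depend on the pseudocount because PDPN- lay below the floor. The value of C1qb in ITGA8+ depended on the probe set. The value given is from a probe set whose suffix (_x_at) marks possible cross-hybridisation. Another of that type read 277 in ITGA8+, but the third probe set, without the suffix, read 41 in ITGA8+ and 1724 in PDPN+.

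Upstream sequences are shown for C1qb and C1qc, which were highest in PDPN+, as were all 36 genes above the floor. RefSeq (GRCm38.p6) gives a start for each of the pair. Both are on the minus strand, at chr4:136886201-136886450 and chr4:136892915-136893164, and are printed 5′ to 3′ for the 250 bases before the start. Capitals mark the 7 letters AGGAAGT on either strand, which contain the GGAA core bound by PU.1 and other Ets factors.
C1qb: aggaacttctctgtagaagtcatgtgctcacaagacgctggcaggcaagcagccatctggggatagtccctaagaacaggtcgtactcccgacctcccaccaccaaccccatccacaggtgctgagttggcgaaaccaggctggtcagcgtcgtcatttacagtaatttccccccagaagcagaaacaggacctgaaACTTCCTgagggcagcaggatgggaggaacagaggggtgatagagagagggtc
C1qc: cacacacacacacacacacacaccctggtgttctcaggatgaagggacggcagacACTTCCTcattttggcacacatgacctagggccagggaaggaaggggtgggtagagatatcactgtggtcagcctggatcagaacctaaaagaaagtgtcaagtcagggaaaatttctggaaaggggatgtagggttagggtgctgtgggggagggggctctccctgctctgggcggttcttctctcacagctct
The match lies on the opposite strand in both, and its nearest base is 47 bases before the start in C1qb and 189 in C1qc. A RefSeq window was at hand for 29 of the 39 genes, and 9 of them (31.0%) held AGGAAGT on some strand, against 8.8% of 27025 genes. The genes whose sequences are printed are all among the 9 and do not stand for the 29. The shorter letters that it contains or overlaps gave 12 of 29 for GGAAGT, against 22.2% of genes, and 16 of 29 for GAGGAA, against 25.9%. The longer GAGGAAGT, which contains both, was in 2 of 29, or 6.9%, against 2.79%. A match describes these letters and is not a binding site.

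The growth factor receptor and the transcription factors of the lineage differed from each other. Csf1r was at 5357 in PDPN+, with 81 in PDPN- and 427 and 139 in ITGA8+ and ITGA8-. Spic, a PU.1 relative of iron-recycling macrophages, was at 591, 17, 41 and 50. Spi1 was low everywhere, at 166 in PDPN+ and 41 to 68 in the other fractions, and Irf8, a factor of monocyte and dendritic cell development, at 514 in PDPN+ and 167 to 261 in the others. The difference between PDPN+ and PDPN- on the log2 scale was 5.79 for Csf1r and 4.20 for Spic, but 1.67 for Spi1 and 0.94 for Irf8. Spi1 has a single probe set, and how well it responds is not known. Irf8 has another probe set, for which that difference was 1.01. The ligands of the CSF1 receptor did not follow its receptor: Csf1 was at 1289 in PDPN+, with 994 in PDPN- and 1614 and 1046 in ITGA8+ and ITGA8-, and Il34 was at 11 to 30 in all 6 arrays.

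Of the scavenger and clearance genes above the floor, 4 of 6 exceeded it in PDPN+ alone, and Mrc1 and Cd68 in the ITGA8 fractions as well. Cd5l, a secreted protein of tissue macrophages, was at 2327 in PDPN+, with 2 in PDPN- and 4 and 13 in ITGA8+ and ITGA8-. Msr1 and Marco encode scavenger receptors of class A. Msr1 was at 1140 in PDPN+ and 30 to 51 in the other fractions, and Marco at 1074 against 23 to 77. Timd4, a receptor for phosphatidylserine on dying cells, was at 476 against 22 to 63. Mrc1, the mannose receptor, which sinusoidal endothelial cells carry too, was at 2102 in PDPN+, with 105 in PDPN- and 917 and 843 in ITGA8+ and ITGA8-. Cd68, a lysosomal glycoprotein, was at 1556, 147, 332 and 370.

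Among surface markers, Adgre1, which encodes the F4/80 antigen, was at 1169 in PDPN+, with 19 in PDPN- and 44 and 31 in ITGA8+ and ITGA8-. Cx3cr1, the fractalkine receptor, was at 256, 12, 51 and 66. PDPN+ was the only fraction above the floor for both. The gene of its ligand, Cx3cl1, was at 4 in PDPN+ and 39 to 56 in the other fractions, below the floor throughout.

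Fc receptor genes and those of their adaptors differed in how much of the PDPN+ level ITGA8+ had. Fcgr1, the high-affinity receptor for IgG, was at 1238 in PDPN+ and 7 to 22 in the other fractions. Fcgr3, a low-affinity IgG receptor, was at 2192 and 130 to 188. Tyrobp (DAP12), the adaptor of TREM2 and other receptors, was at 3493 in PDPN+, with 82 in PDPN- and 201 and 123 in ITGA8+ and ITGA8-. Fcer1g, the Fc receptor gamma chain, which also serves the platelet collagen receptor, was at 3937, 145, 1266 and 387. Its level in ITGA8+ was 32.2% of that in PDPN+, whereas that of Tyrobp was 5.75%, and Fcgr1 was below the floor there. Trem2 (208 in PDPN+), Clec7a, the beta-glucan receptor (697), and Ly86, the partner of the toll-like protein CD180 (1640), were below the floor in the other 3 fractions.

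The lysozyme, cathepsin S and perforin-2 genes were all higher in PDPN+ than in the other fractions. Ctss, a protease that processes antigen, was at 6370 in PDPN+, with 151 in PDPN- and 162 and 45 in ITGA8+ and ITGA8-. Mpeg1, a pore-forming protein of phagosomes, was at 1916, 65, 53 and 55. Lyz2, the lysozyme of macrophages and neutrophils, was at 3729, 66, 164 and 180, and Lyz1, best known from Paneth cells of the gut, at 7251, 54, 686 and 228. The Lyz1 values are uncertain, since they came from a probe set of the cross-hybridising type. The Lyz1 probe set without that suffix read 11 in PDPN+ and 3 to 38 in the other fractions. In the last 600 bases of the GENCODE M21 transcripts, 40.5% of the 25-base words of Lyz1, the length of an array probe, also occurred in Lyz2, so lysozyme signal cannot be divided between the genes with these values.

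The lysozyme pair is shown because the genes are alike in sequence and their signal cannot be divided. Lyz2 at chr10:117282273-117282522 and Lyz1 at chr10:117292869-117293118 are neighbours on the minus strand, and the 250 bases before their starts are identical at 152 positions (60.8%). Capitals again mark AGGAAGT on either strand.
Lyz2: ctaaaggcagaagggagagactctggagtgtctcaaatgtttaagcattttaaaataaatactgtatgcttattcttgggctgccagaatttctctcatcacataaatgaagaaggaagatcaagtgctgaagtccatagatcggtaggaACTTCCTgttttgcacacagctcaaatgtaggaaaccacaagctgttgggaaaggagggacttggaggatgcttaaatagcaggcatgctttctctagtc
Lyz1: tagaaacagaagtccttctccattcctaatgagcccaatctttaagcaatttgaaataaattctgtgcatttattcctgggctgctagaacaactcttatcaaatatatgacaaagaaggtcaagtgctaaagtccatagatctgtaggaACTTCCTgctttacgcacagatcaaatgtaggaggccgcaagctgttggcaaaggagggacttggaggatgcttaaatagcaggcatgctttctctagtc
In both, the match is on the opposite strand, with its nearest base 94 bases before the start.

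The NADPH oxidase genes were at 170 to 461 in PDPN+, and among them Ncf4 differed least between PDPN+ and PDPN-. Cybb, the catalytic subunit gp91phox, was at 334 in PDPN+, with 20 in PDPN- and 67 and 41 in ITGA8+ and ITGA8-. Ncf1, the organising subunit p47phox, was at 461, 11, 181 and 57. Ncf4, the subunit p40phox, was at 170, 96, 74 and 131, and did not reach 2-fold between PDPN+ and PDPN-. Outside the 39 genes, the partner gene Cyba (p22phox), which many cell types express, was at 4844, 6482, 2842 and 2608, highest in PDPN-.

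The iron export and prostaglandin genes differed less between PDPN+ and PDPN-. Slc40a1 encodes ferroportin, the iron exporter of macrophages and other iron-releasing cells, and was at 4703 in PDPN+, with 3410 in PDPN- and 1970 and 1633 in ITGA8+ and ITGA8-. Hpgds, a prostaglandin D2 synthase found in mast cells and megakaryocytes too, was at 232, 104, 158 and 203. The difference between PDPN+ and PDPN- on the log2 scale was 0.46 for Slc40a1 and 1.05 for Hpgds.

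Of 5 genes that serve leukocytes in general, 3 had over 50% of their PDPN+ level in ITGA8+ with the probe set used. Laptm5, a lysosomal membrane protein of blood cells, was at 7069 in PDPN+, with 298 in PDPN- and 5514 and 2702 in ITGA8+ and ITGA8-. Coro1a, an actin-binding protein, was at 4733, 271, 2728 and 1733, and Sla, an adaptor that damps antigen receptor signalling, at 3515, 4, 2233 and 1315. Their levels in ITGA8+ were 78.0%, 57.6% and 63.5% of those in PDPN+. These shares depended on the probe set, and that of Laptm5 is of the cross-hybridising type. Other probe sets above the floor read, for Laptm5, 403 in ITGA8+ and 765 in PDPN+, and 567 and 1154. For Coro1a they read 1520 and 4601, and 11 and 116. For Sla they read 36 and 162, and 131 and 66. Ptprc, which encodes CD45, was at 907, 24, 178 and 131, and Aif1 (IBA1), an actin-bundling protein, at 915, 5, 96 and 70, below the floor in ITGA8+. With the probe set used, 4 of the 36 genes above the floor in PDPN+ had over 50% of that level in ITGA8+. They were Laptm5, Sla, Coro1a and Hpgds. The share over all genes was not counted, so no result is read from the 3 of 5 or the 4 of 36.

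Podoplanin split the ALCAM+ cells with most of these genes on the positive side. Of 36 genes above the floor, 33 were 2-fold higher in PDPN+ than in PDPN- and 0 were lower, where 19.9% of 13437 genes were higher and 7.93% lower. At 4-fold 31 were higher, as were 9.11% of all genes. The median difference of the 36 was 4.51, against 0.04 over all genes. With the probe set used, Slc40a1, Irf8 and Ncf4 were the genes within 2-fold. The other Irf8 probe set read 165 in PDPN+ and 74 in PDPN-, a difference of 1.01, just past 2-fold. In 27 of the 33, PDPN- lay at or below the floor, so the size of their difference and their order depend on the pseudocount. For the 33, other probe sets that exceeded the floor, which most did through PDPN+, were 2-fold higher in 16 of 16 cases. Some below the floor were not, such as those of Cx3cr1 at 0.74, Cybb at 0.66, Laptm5 at 0.53 and 0.87, Lyz1 at 0.51 and Ncf1 at 0.32.

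Fewer of them differed between ITGA8+ and ITGA8-. Of 19 genes above the floor, 7 were 2-fold higher in ITGA8+ and 0 lower, where 5.38% of 13872 genes were higher and 6.0% lower, and the median difference was 0.64. At 4-fold 1 was higher, and 0.353% of all genes were. With no threshold, ITGA8+ exceeded ITGA8- for 22 of the 36 genes above the floor in some fraction and was below it for 13, where 50.3% and 49.4% of all genes were. The 7 were C1qb at 2.24, Fcer1g at 1.67, Ctss at 1.54, Lyz1 at 1.52, Csf1r at 1.52, Ncf1 at 1.43 and Laptm5 at 1.02. For C1qb, Ctss and Ncf1 the ITGA8- array was below the floor. The 12 others lay between -0.71 for Ncf4 and 0.76 for Sla. Other probe sets gave less backing than in the podoplanin split, with 2 of 5 above the floor 2-fold higher. Those 2 were of the cross-hybridising type, for C1qb (277 in ITGA8+ and 35 in ITGA8-) and Lyz1 (420 and 131). For Csf1r the other 2 probe sets read 141 and 49 in ITGA8+ and 65 and 69 in ITGA8-. With probe sets of the specific type alone, 4 genes were higher. So were 4 of the 10 left when members set aside as widely expressed were left out. Those set aside were Mrc1, Slc40a1, Cd14, Hpgds, Fcer1g, Ptprc, Coro1a, Laptm5, Sla and Lyz1. The 10 are not restricted to macrophages, since Lyz2, a lysozyme of neutrophils too, is among them.

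Between the sorts, both ITGA8 fractions lay below PDPN+. Of 36 genes 32 were 2-fold lower in ITGA8+ than in PDPN+, with a median of -3.21, and 0 were higher, where 14.2% of all genes were lower and 16.3% higher. In ITGA8- 34 of 36 were lower, with a median of -3.39, and 0 were higher, where 8.36% of all genes were lower and 9.08% higher. ITGA8+ in turn was 2-fold higher than PDPN- for 13 of 18 genes, with a median of 2.23, and lower for 0, where 27.4% of all genes were higher, 14.3% were lower and the median over all genes was 0.24. These comparisons share arrays with each other and with the splits above. All 36 genes exceeded the floor in PDPN+, so the counts against PDPN+ are read only beside the shares over all genes. The lower array lay at or below the floor for 18 of the 32 genes, 20 of the 34 and 9 of the 13. The size of those differences depends on the pseudocount.

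Compared with liver cells, ALCAM+ cells as a whole showed no common direction of these genes. The median over all genes differed by 0.90 on the log2 scale between these arrays, and differences are relative to it. Of the 39 genes 28 exceeded the floor here; 5 of them were at least 2-fold higher in ALCAM+ and 2 lower, where 15.4% of 10957 genes were higher and 11.2% lower, and the median was 0.02. At 4-fold 0 were higher and 1 lower, where 3.55% and 2.24% of all genes were. Csf1r was at 516 in liver and 2823 in ALCAM+, a relative difference of 1.51. Cd5l was at 99 and 500 (1.26), Sla at 588 and 2657 (1.24), Marco at 114 and 525 (1.16) and C1qb at 731 and 2898 (1.06). Other probe sets of these genes that exceeded the floor were 2-fold higher in 1 of 3 cases. That 1 was a C1qb probe set of the cross-hybridising type, at 337 in liver and 1904 in ALCAM+. The C1qb probe set without that suffix read 91 and 221, and one of Csf1r read 148 and 491. Of the lower genes, Ncf4 was at 361 in liver and 53 in ALCAM+ (-3.35), and Lyz2 at 668 and 603 (-1.05). In the same comparison 6 of 8 neutrophil markers were lower by at least 2-fold, with a median of -3.95, as were 12 of 13 erythroid markers (median -2.40), while 9 of 12 megakaryocyte markers were higher (median 1.49). Their part in the result was not tested. As deposited, without the shift, 12 of the 28 genes were higher and 1 lower, but the median over all genes was then 0.90. The share of all genes past 2-fold was not counted without the shift, so nothing is read from these 2 counts.

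**Figure D2:**
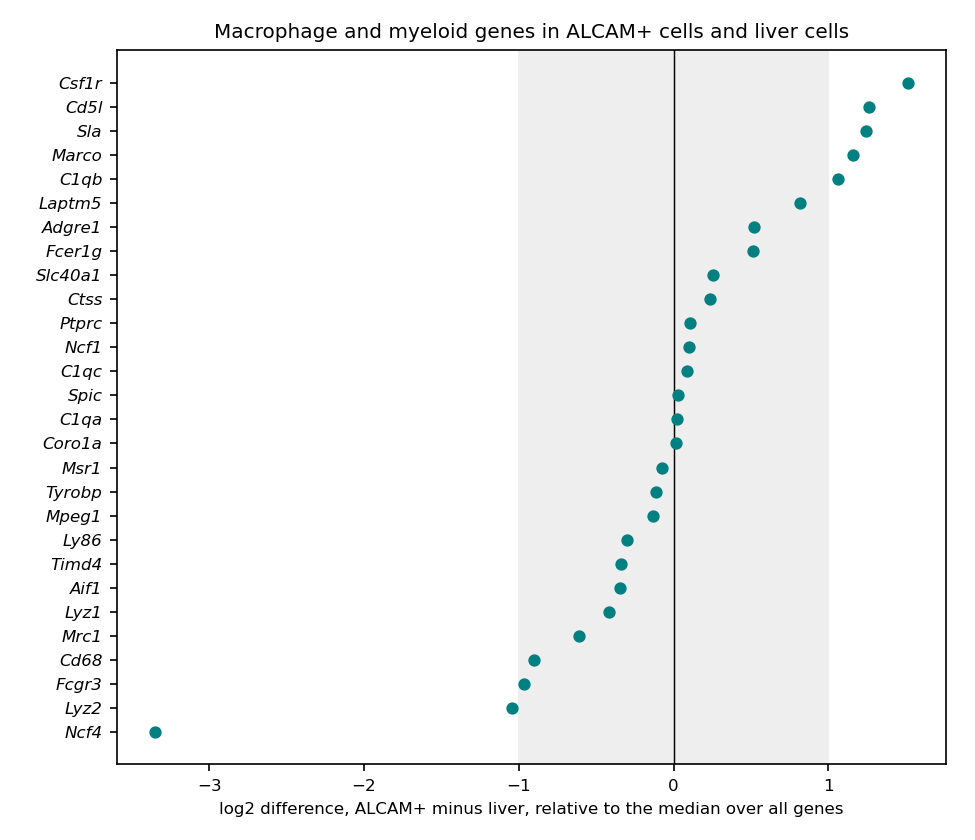
Difference between ALCAM+ and liver cells on the log2 scale, relative to the median over all genes, for the 28 genes above the floor, 1 array per group. The shaded band marks differences within 2-fold. Csf1r, Cd5l, Sla, Marco and C1qb lie to its right, Lyz2 and Ncf4 to its left.

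The related genes, 129 in lists of complement, growth factors, transcription factors, engulfment, Fc signalling, lysosome, iron, pattern recognition and other macrophage genes, of which 123 were measured, shared the order of the 39 in part. Above the floor, 57 of 100 were 2-fold higher in PDPN+ than in PDPN- and 7 lower, with a median of 1.78, where 19.9% of all genes were higher and 7.93% lower. Where PDPN- was below the floor, as for Btk (7), Fcgr4 (40) and Cd36 (4), the size of a difference depends on the pseudocount and no order is read from it. Among Fc and ITAM signalling genes 13 of 14 were higher, among them Btk, a kinase of B cell and myeloid receptors, at 3.96 and Fcgr4, an IgG receptor, at 3.92, while Ptpn6 at 0.79 and Sirpa at 1.12 were at the low end. The kinase gene Syk was at 513 in PDPN+, with 27 in PDPN- and 1120 and 566 in ITGA8+ and ITGA8-, an order that the IgG receptor gene Fcgr4 (831, 40, 50 and 35) did not share. The inhibitory receptor gene Fcgr2b was at 124, 7, 20 and 26. Of other tissue macrophage and monocyte genes 13 of 15 were higher, with the folate receptor gene Folr2 at 5.11 and Ms4a6d at 4.97. Apoe at -0.77 and Sall1 at -1.07 were lowest. Of these, Folr2 was at 570 in PDPN+ and 1 to 39 in the other fractions.

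The other lists differed from one another. Of 14 oxidase partner and lysosome genes 3 were higher, with Rac2 at 3.22 and Lgmn at 2.02 among them, and Lipa was lower at -1.11, with a median of -0.22. This count and that of the next list are near the share over all genes, 19.9%, and are not read as a result about the lists. Of 9 iron and haem genes 2 were higher, Hmox1, haem oxygenase, at 2.98 and the haem transporter gene Slc48a1 at 1.48, and Hamp, hepcidin, a hepatocyte hormone, was lower at -3.41, followed by Hpx at -0.99. Of 12 engulfment genes 5 were higher, with Gas6 at 4.45 and Cd36 at 4.15 among them, with Mfge8 at -0.84 and Pros1 at -0.30 lowest. Of 14 transcription factors 7 were higher, with Tfec at 2.97 and Klf4 at 2.55, and Cebpa was lower at -1.05, next to Nr1h3 at -0.69. Of 9 complement genes 5 were higher and 3 lower. C5ar1 at 6.55 and Itgb2 at 4.01, which belong to receptors, and Cfp, the soluble factor properdin, at 2.12 were among those higher in PDPN+, while the protease genes C1ra at -2.00, C2 at -1.96 and C1s1 at -1.38 were lower. C1r and C1s, which bind C1q, had the opposite order: C1s1 was at 6518 in PDPN- and 2489 in PDPN+, and C1ra at 1117 and 268. Of 7 growth factor and chemokine genes 5 were higher, with Ccl3 at 5.67 and Csf2rb at 4.03, and Csf1 at 0.37 and Csf2ra at 0.46 lowest. Of 6 pattern recognition genes 4 were higher, with Casp1 at 5.02 and Tlr4 at 4.16, and Myd88 at 0.53 and Ly96 at 0.82 lowest.

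**Figure D3:**
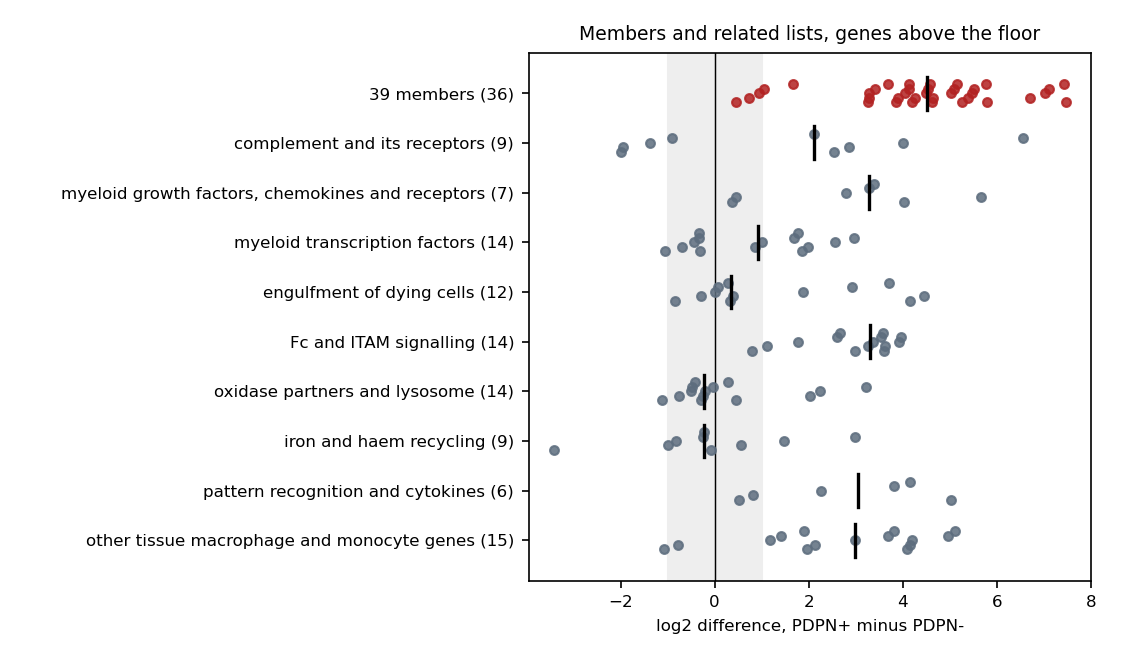
Difference between PDPN+ and PDPN- cells on the log2 scale for the 39 genes (red, 36 above the floor) and for 9 related lists (grey), with the number above the floor in brackets, 1 point per gene and a bar at each median. The shaded band marks differences within 2-fold. The 36 have a median of 4.51, while the lysosome and iron lists centre near 0 and complement genes lie on both sides.

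Markers of several other cell types differed between the same arrays. The summed intensity of 12 neutrophil markers was 30205 in PDPN+, with 246 in PDPN- and 3117 and 2085 in ITGA8+ and ITGA8-, and 10 of 10 above the floor were 2-fold higher in PDPN+ than in PDPN-. S100a8 was at 8407 in PDPN+ and 16 to 25 in the other fractions, but Mpo, a granule enzyme gene of early myeloid cells, was at 1553 in PDPN+, with 1 in PDPN- and 2532 and 1618 in ITGA8+ and ITGA8-. The 12 megakaryocyte markers summed to 36450, 372, 43777 and 18519, so that ITGA8+ exceeded PDPN+. Of these 12, all were 2-fold higher in PDPN+ than in PDPN-, and 10 in ITGA8+ than in ITGA8-. Erythroid markers summed to 9512, 5208, 61922 and 46293, with the order of the sorts turned around. Mesothelial markers summed to 57258, 1463, 18483 and 44308, endothelial markers to 5655, 2343, 7827 and 8566, and eosinophil, basophil and mast cell markers to 5102, 1443, 2477 and 2618. Hepatoblast markers (212686, 264196, 184724 and 152747) and stellate markers (24703, 27959, 47038 and 27109) were not higher in PDPN+ than in PDPN- as sums. Of 12 in each list, 0 and 2 were 2-fold higher. Lymphocyte markers were low, at 323 in PDPN- to 1187 in PDPN+ over 13 genes, with Cd3e at 2 to 106. Of 3 above the floor, 2 were 2-fold higher in PDPN+ than in PDPN-. Ighm was at 444 in PDPN+ and 2 in PDPN-, Cd79b at 352 and 55, and Lck at 114 and 145. PDPN- was the lowest fraction for 28 of the 36 genes, as it was for 40.4% of all genes. The part that neutrophils, megakaryocytes and other blood cells have in the levels of the 39 genes was not tested.

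**Figure D4:**
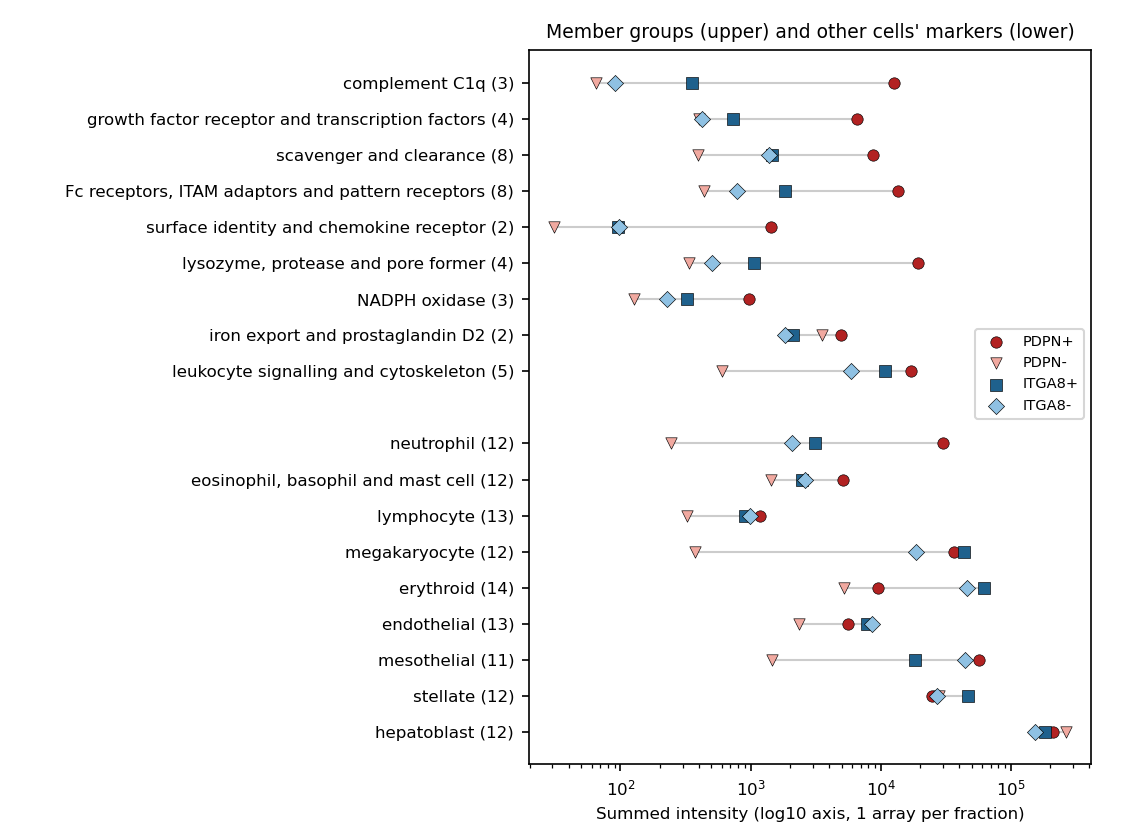
Summed intensity (log10 axis) of the role groups of the 39 genes (upper rows) and of markers of other cells (lower rows) in the 4 fraction arrays, with the number of genes measured in brackets and 1 point per array. PDPN+ is highest in every role group of the 39 genes. It is also highest for neutrophil, mesothelial and lymphocyte markers and for those of eosinophils, basophils and mast cells. ITGA8+ is highest for megakaryocyte, erythroid and stellate markers, ITGA8- for endothelial and PDPN- for hepatoblast markers.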

How the data were processed

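Gene expression was measured on 6 arrays, 1 per group. Biotinylated targets were made from 20 ng of RNA with an amplification kit, per the labels. The authors deposited linear intensities as whole numbers. RMA and Partek are named in the submitters' processing notes, without versions, and the sources used here do not give the build behind the array annotation. The planned analysis had allowed for log2 values, so log2(intensity + 16) was computed here with Python 3.11.15 and pandas 2.3.3.

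Of 45101 probe sets, 38011 named 1 gene each, and symbols were taken through Entrez identifiers from a RefSeq table of GRCm38.p6, which matched 92.1%. Genes were counted at 2-fold above a floor of 109, in 6 comparisons, with no test. All 39 members are described. In related lists the 2 highest and the 2 lowest genes in the podoplanin split and known partners of members are named. Folr2 beyond its difference, Lgmn, Cfp, Mpo, S100a8, Cd3e, Ighm, Cd79b and Lck were named after their values were seen. Some genes that this rule names are not reported here. Members and lists were chosen with earlier results of these data known. The percentages of the PDPN+ level and the motifs were added after seeing the data. Counting was tested on simulated data. No replicate supports any value, and the number of arrays limits the precision.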

Additional observations from a re-analysis of the deposited data

How the results depend on the processing

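Each comparison's counts and median were recomputed under up to 11 alternatives. The median of ALCAM+ minus liver, 0.02, changed sign within 0.1 of 0, and was -0.09 with a pseudocount of 64. In the podoplanin split no count moved by more than 1.5 times. There the median was 3.68 with a pseudocount of 64 and 3.91 with the mean of probe sets. In ITGA8+ minus ITGA8- the 7 higher genes became 4 with the mean of probe sets, 4 with specific probe sets, 4 without widely expressed genes and 1 at 4-fold. In ALCAM+ minus liver the 5 higher genes became 3 with the mean of probe sets, 12 without the median shift and 0 at 4-fold. The 12 have no share over all genes beside them, and nothing is read from that count. The 2 lower genes became 1 with a pseudocount of 64, no floor, the mean of probe sets, no median shift or 4-fold. The median was 0.93 without the shift, where that over all genes was 0.90. ITGA8+ minus PDPN+ had a median of -2.63 with a pseudocount of 64, and ITGA8- minus PDPN+ one of -4.11 without widely expressed genes. In ITGA8+ minus PDPN- 6 rather than 13 genes were higher without widely expressed genes, 1 rather than 0 was lower with the mean of probe sets or with the median subtracted, and the median was 1.58 with a pseudocount of 64, 0.79 with no floor, 1.32 with the mean of probe sets, 1.15 with specific probe sets and 1.13 without widely expressed genes. Apart from what the alternatives themselves leave out, the cause was not tested. No paired analysis was possible because each group has 1 array.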

Other observations

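Of 118 genes whose PDPN+ level exceeded each other fraction at least 4-fold, 24 are among the 39 macrophage and myeloid genes, 20 in the related lists, 8 among markers of other cells (7 neutrophil, 1 eosinophil) and 66 in no list. Among the last, named after their values were seen, Fcna, a ficolin of the lectin pathway of complement, was at 1892 in PDPN+, with 26 in PDPN- and 33 and 17 in ITGA8+ and ITGA8-, and at 712 in ALCAM+ and 238 in liver. Cd53, a tetraspanin of leukocytes, was at 4752, 74, 411 and 392. The integrin gene Itgal was at 925, 30, 93 and 126, and the cathepsin C gene Ctsc at 3566, 494, 520 and 797. The eosinophil ribonuclease gene Ear1 was at 1838, 26, 54 and 3, but at 324 in liver and 51 in ALCAM+, so that unlike Fcna it was lower in ALCAM+ than in liver as deposited. These genes were picked from the 66 and do not stand for them. Wfdc2, at 1723, 214, 117 and 220, and Kcna4, at 1076, 26, 179 and 243, were also among the 66.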
